A study of Rattus norvegicus with 9 samples.

Results

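The elastic fibre genes were 10 genes of the deposited table: *Eln*, *Fbn1*, *Fbn2*, *Fbln1*, *Fbln2*, *Fbln5*, *Efemp1*, *Efemp2*, *Mfap5* and *Emilin1*. They were chosen by their symbols and not by their values, but with earlier results of these data known. Each symbol matched 1 of the 32883 genes, and all 10 were among the 13273 genes with enough counts to test. RNA was sequenced from 9 libraries of cultured fibroblasts (Fb) of wild-type Lewis rats, with 3 libraries each of Fb-Epn (from the epineurium, the outer sheath of the sciatic nerve), Fb-Par (from the parenchyma inside that sheath) and Fb-Skn (from abdominal skin). Fb-Epn and Fb-Par came from 2 male rats and Fb-Skn from 1 other male rat, all aged 10 weeks, and no cells were treated. Every type was grown on plastic in medium with fetal bovine serum and passaged 1 time after 3 to 4 days. The 3 libraries of a type cannot be 3 rats, so an SD or p-value here covers the spread between libraries, which may be technical. Tissue, body site and rat change together between Fb-Skn and the nerve types and cannot be told apart.

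An elastic fibre has a core of crosslinked elastin, which gives skin, vessels and nerve sheaths their recoil, and a mantle of microfibrils built from fibrillins. Fibulins, microfibril-associated proteins and emilins sit at the border of core and mantle. Several of them carry elastin and its crosslinking enzymes onto the microfibrils during assembly, while others bind basement membranes or growth factors. In the epineurium these fibres run along the nerve, and inside the nerve they are sparse.

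The 6 analysed of 7 listed fibroblast markers summed to 25824 to 31195 TPM per library (transcript level scaled for gene length and library size). Most of this sum was *Col1a1* (means of 13724 to 21077 TPM across the types) and *Col3a1* (4469 to 13024). Means of *Pdgfra* (80.5 to 151) and *Lum* (186 to 415) were much lower. *Col1a1* and *Thy1* were highest in Fb-Skn, *Lum* in Fb-Par, and both *Col3a1* and *Pdgfra* in Fb-Epn. Total counts were 10084584 to 12310506 per library, and libraries of a type differed by more than counting noise in every pair. Markers of other cells also differed between the types. The 7 Schwann cell markers summed to 190 to 201 TPM in Fb-Epn cells, 262 to 269 in Fb-Par and 10.53 to 13.2 in Fb-Skn, where *Sox10* and *Erbb3* had 0 counts. The 8 smooth muscle and pericyte markers summed to 8748 to 8969 TPM in Fb-Epn cells, 13440 to 14060 in Fb-Par and 20773 to 21046 in Fb-Skn. Most of the Fb-Skn sum was *Acta2* (mean 10307 TPM) and *Tagln* (9818), which with *Cnn1* were highest there. In contrast *Myh11*, *Rgs5*, *Notch3* and *Mcam* were highest in Fb-Par and *Des* in Fb-Epn, and *Rgs5* had 0 counts in Fb-Skn. The 6 macrophage markers summed to 223 to 250.2 TPM in Fb-Epn cells, 56.0 to 60.8 in Fb-Par and 18.3 to 20.4 in Fb-Skn, and none was at 0 in a whole type. Perineurial markers (4 genes) summed to 211 to 216 TPM in Fb-Epn, 87.1 to 94.7 in Fb-Par and 113 to 125 in Fb-Skn. In Fb-Epn most of this was *Slc2a1* (mean 145), while *Cldn1* had at most 7 counts in any library. Chondrocyte markers (4) reached 96.5 in Fb-Epn, nearly all of it *Sox9* (mean 93.4), 22.2 in Fb-Par and 16.5 in Fb-Skn. Endothelial markers (5 of 6 analysed) reached 15.2 in Fb-Epn, and in Fb-Skn keratinocyte markers (4) reached 4.16 and adipocyte markers (3) 0.950. The part of these cells in the results below was not tested.

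All 3 types expressed all 10 genes, but each type had its own mixture. In TPM, 5 genes (*Fbln1*, *Fbln2*, *Efemp2*, *Mfap5* and *Emilin1*) were highest in Fb-Epn, 2 (*Fbn1* and *Efemp1*) in Fb-Par and 3 (*Eln*, *Fbn2* and *Fbln5*) in Fb-Skn. Of all tested genes, 36.2%, 39.7% and 24.1% were highest in these types. Fb-Par was lowest for 5 members, Fb-Skn for 3 and Fb-Epn for 2, against 26.5%, 48.6% and 24.9% of all tested genes. For 9 members the highest mean TPM was more than 2 times the lowest, against 28.2% of all tested genes. The ratio of highest to lowest was 74.3 for *Efemp1*, 5.94 for *Fbln5*, 4.95 for *Fbln1*, 3.70 for *Emilin1*, 3.26 for *Eln*, 3.10 for *Mfap5*, 2.90 for *Fbn1*, 2.35 for *Fbln2*, 2.09 for *Fbn2* and 1.39 for *Efemp2*. Within a type, no member had a coefficient of variation above 11.4%.

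**Figure D1:**
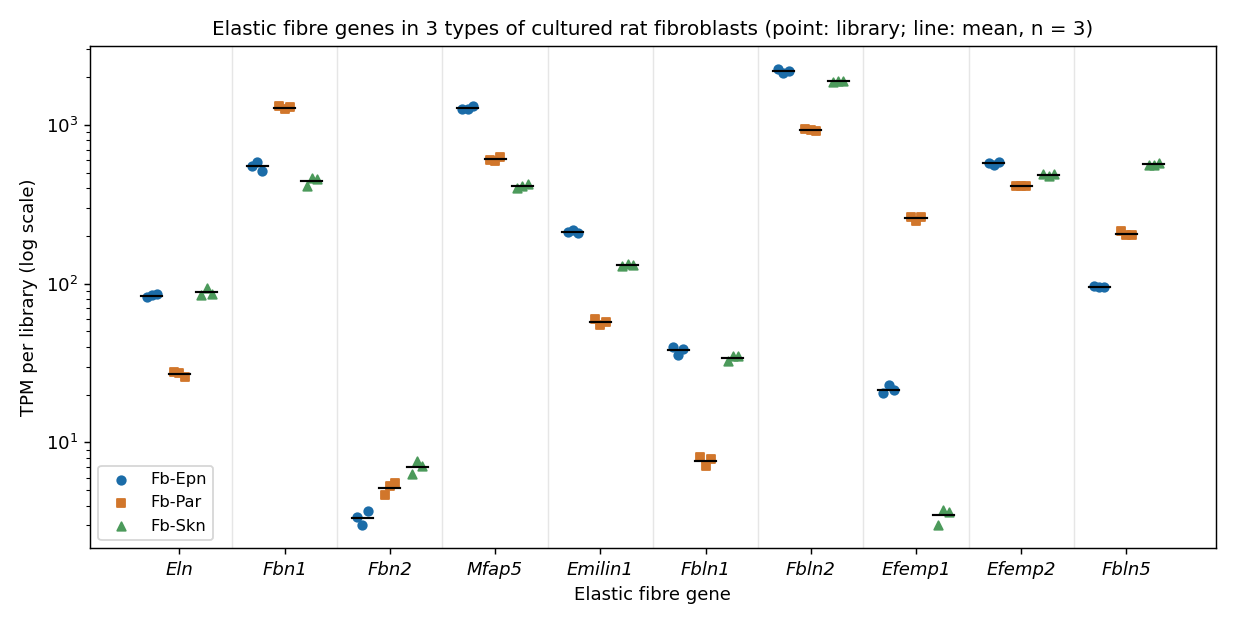
TPM of the 10 elastic fibre genes on a log axis, with 1 point per library and a line at the mean of each type (n = 3). The 3 points of a type lie close together, and the order of the types changes from gene to gene, with the widest spread for *Efemp1* (3.48 to 259 TPM).

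The types were compared by edgeR's quasi-likelihood test of the counts, fitted to all 9 libraries at once, and a gene was called when its Benjamini-Hochberg adjusted p over all tested genes was under 0.01. Fold changes below are log2 values of this fit with their standard error (SE). Because the 3 comparisons reuse the same libraries, they are not independent of each other. Against Fb-Skn, Fb-Epn differed in 8 members, 5 higher and 3 lower, where 43.9% of all tested genes were called (23% higher and 20.9% lower). With limma on TPM the split was 6 higher and 2 lower. Between Fb-Par and Fb-Skn, all 10 were called, 3 higher and 7 lower in Fb-Par, against 45.6% (23.2% higher and 22.4% lower). Between Fb-Epn and Fb-Par, all 10 were called, 6 higher and 4 lower in Fb-Epn, against 38.8% (20.2% higher and 18.6% lower). In all 3 comparisons 8 members were called, against 16.5% of all tested genes, and in the test for any difference among the types 10 were, against 58.8%. On the TPM scale more of the called genes were higher in a nerve type than in Fb-Skn (69.0% and 66.9% with limma on log2(TPM + 1), against 52.3% and 50.8%). The median size of a member's difference, whatever its direction, was 0.38, 1.36 and 1.23 on the log2 scale in the 3 comparisons, against 0.33, 0.34 and 0.28 for all tested genes. Fewer cells of a kind and less RNA per cell cannot be told apart in such cultures.

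DE genes also needed a log2 fold change above 2 or below -2. Each comparison held 1 member up and 1 down past this limit, against 8.44%, 8.54% and 6.48% of all tested genes. Against Fb-Skn, Fb-Epn had *Efemp1* up (with 6.22% of all tested genes) and *Fbln5* down (2.22%), and Fb-Par had *Efemp1* up (5.86%) and *Fbln1* down (2.67%). Against Fb-Par, Fb-Epn had *Fbln1* up (4.09%) and *Efemp1* down (2.39%). The TPM ranges of 2 types did not overlap for 9 members between Fb-Epn and Fb-Skn (61.4% of all tested genes), for 10 between Fb-Par and Fb-Skn (61.7%) and for 10 between Fb-Epn and Fb-Par (57.3%). For 9 members no pair of types overlapped, against 30.5% of all tested genes.

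**Figure D2:**
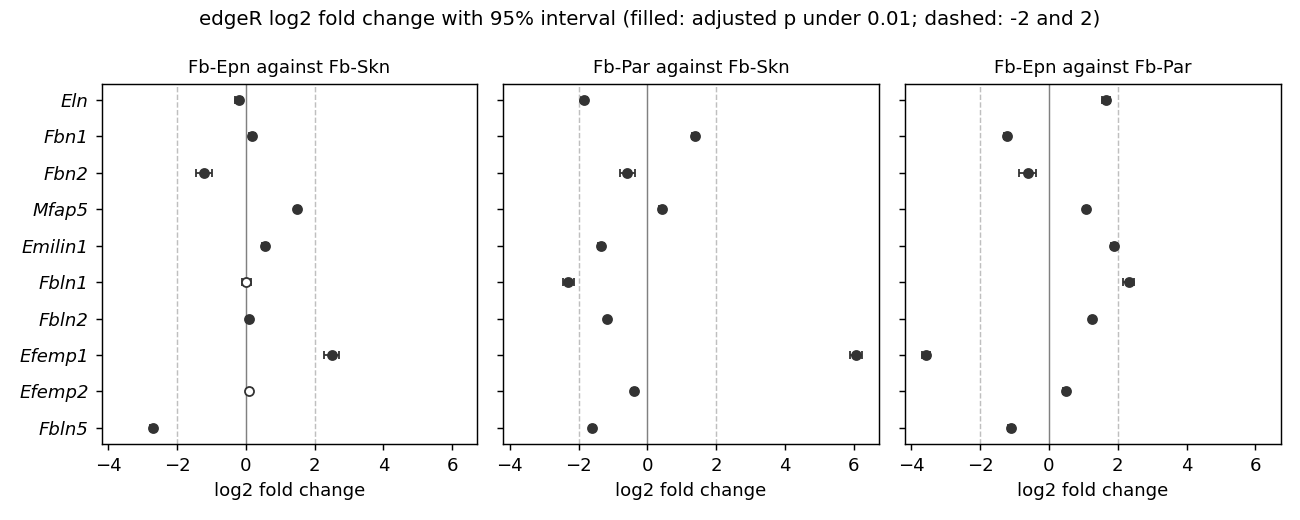
edgeR log2 fold changes of the 10 members in the 3 comparisons with 95% intervals, where filled points have an adjusted p under 0.01 and dashed lines mark -2 and 2. *Efemp1* lies farthest from 0 in Fb-Par against Fb-Skn (6.07), and *Fbln1* and *Efemp2* are the open points of Fb-Epn against Fb-Skn.

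*Eln* encodes tropoelastin, the soluble monomer of the elastic core. Its TPM was 81.9, 85.0 and 85.7 in the Fb-Epn libraries, 27.9, 27.6 and 25.7 in Fb-Par, and 84.9, 93.8 and 85.9 in Fb-Skn. All Fb-Par libraries lay below all others, while Fb-Epn and Fb-Skn overlapped. Fb-Par had 3.62-fold less than Fb-Skn (log2 -1.86, SE 0.052, adjusted p = 3.9e-13, edgeR) and 3.14-fold less than Fb-Epn (1.65 higher in Fb-Epn, SE 0.052, adjusted p = 1.8e-12). Between Fb-Epn and Fb-Skn the difference was small (-0.21, SE 0.047, adjusted p = 0.0019). Its call was lost in 6 of 21 other settings (adjusted p up to 0.33), among them without Fb-Epn 1 (0.014) and without Fb-Skn 2 (0.015). The gene (ENSRNOG00000001469) lies on chromosome 12 of rn6, from 24978483 to 25021863 on the plus strand.

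*Fbn1* and *Fbn2* encode the fibrillins, the chain-forming proteins of the microfibril, of which fibrillin-2 is best known from developing tissue. *Fbn1* (chromosome 3, 117569697 to 117766120, minus strand) was among the most abundant transcripts, with 552, 582 and 516 TPM in the Fb-Epn libraries, 1313, 1257 and 1289 in Fb-Par, and 414, 463 and 455 in Fb-Skn. Every Fb-Par library exceeded every library of the other types, so *Fbn1* and *Eln* had opposite extremes there. Fb-Par was 2.61-fold above Fb-Skn (log2 1.39, SE 0.041, adjusted p = 7.0e-13, edgeR) and 2.32-fold above Fb-Epn (adjusted p = 3.4e-12). Between Fb-Epn and Fb-Skn it differed by 0.17 (SE 0.040, adjusted p = 0.0022), a call lost without Fb-Epn 2 (adjusted p = 0.013) or Fb-Skn 1 (0.011), the highest of 21 settings being 0.013. The start of *Fbn1* overlaps by 160 bp a pseudogene on the other strand, *AABR07053635.1*, which had 291 to 1967 counts per library against 21609 to 71185 for *Fbn1*. Its level was 314 ± 35.9 TPM in Fb-Epn cells, 805 ± 75.5 in Fb-Par and 157 ± 18.3 in Fb-Skn (SD, n = 3). The sources used here do not state whether counting used the strand, and without it reads in the shared stretch cannot be told apart.

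*Fbn2* (chromosome 18, 53068495 to 53181503, minus strand) had the lowest TPM of the members in Fb-Epn and Fb-Par, with 132 to 284 counts per library over all types. It had 3.37, 3.00 and 3.68 TPM in the Fb-Epn libraries, 4.69, 5.35 and 5.52 in Fb-Par, and 6.32, 7.65 and 7.07 in Fb-Skn, ranges that did not overlap. Fb-Epn was 2.31-fold below Fb-Skn (log2 -1.21, SE 0.11, adjusted p = 2.8e-07, edgeR). Fb-Par was between them, at -0.58 against Fb-Skn (SE 0.10, adjusted p = 0.00025) and with Fb-Epn at -0.62 against it (SE 0.11, adjusted p = 0.00028). With limma on log2(TPM + 0.1) or log2(TPM + 1) the call between Fb-Par and Fb-Skn was lost (adjusted p = 0.027 and 0.018, the range of 21 settings being 1.4e-05 to 0.027).

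*Mfap5* and *Emilin1* encode proteins that decorate the fibre. *Mfap5* encodes a small glycoprotein bound to fibrillin (MAGP-2), and *Emilin1* a glycoprotein at the border of elastin and microfibrils that also binds integrins. *Mfap5* (chromosome 4, 155313671 to 155336228, plus strand) had 1262, 1255 and 1321 TPM in the Fb-Epn libraries, 606, 590.0 and 630.0 in Fb-Par, and 399, 413 and 425 in Fb-Skn. This order held for every library. Fb-Epn was 2.82-fold above Fb-Skn (log2 1.49, SE 0.035, adjusted p = 6.0e-14, edgeR) and 2.12-fold above Fb-Par (adjusted p = 1.9e-12), and Fb-Par was 1.33-fold above Fb-Skn (0.41, SE 0.035, adjusted p = 1.3e-07).

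*Emilin1* (chromosome 6, 26821255 to 26828972, minus strand) had 213, 218 and 208 TPM in the Fb-Epn libraries, 59.9, 54.8 and 57.7 in Fb-Par, and 129.9, 134 and 130.5 in Fb-Skn. Both it and *Mfap5* were highest in Fb-Epn, but *Emilin1* was lowest in Fb-Par and *Mfap5* in Fb-Skn. Fb-Epn was 3.73-fold above Fb-Par (log2 1.90, SE 0.039, adjusted p = 1.7e-14, edgeR) and 1.47-fold above Fb-Skn (adjusted p = 9.9e-09), and Fb-Par was 2.53-fold below Fb-Skn (adjusted p = 7.8e-13).

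The fibulins fall into a pair of long forms, *Fbln1* and *Fbln2*, which bind basement membranes as well as elastic fibres, and the short forms *Fbln5*, *Efemp1* and *Efemp2*. *Fbln2* (chromosome 4, 122835436 to 122895121, plus strand) was the most abundant member in Fb-Epn and Fb-Skn. It had 2261, 2127 and 2188 TPM in the Fb-Epn libraries, 946, 926 and 923 in Fb-Par, and 1856, 1889 and 1899 in Fb-Skn. Its mean in Fb-Epn exceeded that of 99.7% of the tested genes. *Fbln1* (chromosome 7, 126096793 to 126176468, plus strand) had the same shape at a much lower level, with 40.1, 35.4 and 38.7 TPM in the Fb-Epn libraries, 8.04, 7.13 and 7.90 in Fb-Par, and 32.8, 34.9 and 35.0 in Fb-Skn. Fb-Par was lowest for both. *Fbln1* was 4.93-fold lower in Fb-Par than in Fb-Skn (log2 -2.30, SE 0.075, adjusted p = 2.4e-12, edgeR) and 4.97-fold lower than in Fb-Epn (adjusted p = 2.5e-12). *Fbln2* was 2.24-fold lower than in Fb-Skn (adjusted p = 1.0e-14) and 2.37-fold lower than in Fb-Epn (adjusted p = 6.2e-15).

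Between Fb-Epn and Fb-Skn the long fibulins differed little. For *Fbln1* the log2 difference was 0.01 with a 95% interval from -0.12 to 0.15 (adjusted p = 0.87, edgeR), and its sign turned without Fb-Epn 1 (-0.020) or Fb-Skn 1 (-0.0020). For *Fbln2* it was 0.08 (interval 0.031 to 0.13, adjusted p = 0.0086). That call was lost in 5 of 21 settings, namely with all genes of at least 1 count (0.016) and without Fb-Epn 1 (0.038), Fb-Epn 3 (0.016), Fb-Skn 2 (0.022) or Fb-Skn 3 (0.018). TPM of both genes did not overlap between these types, but the median tested gene was itself higher by 0.14 (log2) in either nerve type than in Fb-Skn on the TPM scale, and by less than 0.02 either way in the edgeR fit.

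*Fbln5* encodes fibulin-5, which brings elastin to the microfibrils and binds integrins. It had 96.5, 95.1 and 94.8 TPM in the Fb-Epn libraries, 215, 203 and 202 in Fb-Par, and 563, 562 and 576 in Fb-Skn. These levels formed steps with no overlap between types and with Fb-Skn at the top. Fb-Epn was 6.54-fold below Fb-Skn (log2 -2.71, SE 0.035, adjusted p = 1.3e-16, edgeR), Fb-Par was 3.04-fold below Fb-Skn (-1.61, SE 0.033, adjusted p = 1.2e-14), and Fb-Epn was 2.15-fold below Fb-Par (-1.10, SE 0.035, adjusted p = 1.9e-12). The gene lies on chromosome 6, from 125644804 to 125723944 on the minus strand.

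*Efemp1* encodes fibulin-3, a short fibulin found in basement membranes and fascia. It had 20.4, 23.0 and 21.3 TPM in the Fb-Epn libraries, 262, 248 and 265 in Fb-Par, and 3.03, 3.77 and 3.64 in Fb-Skn. Behind them stood counts of 211 to 269 per library in Fb-Epn cells, 2430 to 2964 in Fb-Par and 34 to 37 in Fb-Skn. Fb-Par was 67.1-fold above Fb-Skn (log2 6.07, SE 0.078, adjusted p = 7.8e-17, edgeR) and 11.9-fold above Fb-Epn (SE 0.059, adjusted p = 1.5e-15). Fb-Epn was in turn 5.64-fold above Fb-Skn (2.496, SE 0.098, adjusted p = 2.2e-11). The gene lies on chromosome 14, from 113202419 to 113295014 on the plus strand.

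*Efemp2* encodes fibulin-4, which links lysyl oxidase to elastin, and it was the steadiest member. It had 577, 558 and 586 TPM in the Fb-Epn libraries, 413, 415 and 411 in Fb-Par, and 489, 477 and 489 in Fb-Skn. Fb-Par was lowest, 1.30-fold below Fb-Skn (adjusted p = 1.2e-07, edgeR) and 1.40-fold below Fb-Epn (adjusted p = 9.9e-09). Between Fb-Epn and Fb-Skn the log2 difference was 0.10 (interval 0.033 to 0.17) and missed the threshold (adjusted p = 0.015). It passed in 9 of 21 other settings, among them a threshold of 0.05 on the same fit and the fit without Fb-Skn 1 (adjusted p = 0.0070). Over the 21 settings the adjusted p ranged from 4.9e-05 to 0.057. The gene lies on chromosome 1, from 220854403 to 220861420 on the plus strand.

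Promoter sequences are shown for the members with the widest range between types among the 7 that matched a promoter window of RefSeq (build GRCr8, which is not the build of the counts). A window runs from 250 bases before to 50 bases after the start used for it. For *Efemp1* and *Fbln5* that start lies inside the span that RefSeq's gene table gives the gene. Only the bases outside that span are printed (155 for *Efemp1*, 109 for *Fbln5* and 250 for *Mfap5*), 5′ to 3′ on the gene's strand. They lie at chr14:106811614-106811768 (plus strand) for *Efemp1*, chr6:126742848-126742956 (minus strand) for *Fbln5* and chr4:157399669-157399918 (plus strand) for *Mfap5*. Capitals mark matches, on either strand, to the TATA box TATAAA, the CCAAT box CCAAT, the GC box GGGCGG, the AP-1 site TGANTCA and the SMAD element CAGAC.
Efemp1: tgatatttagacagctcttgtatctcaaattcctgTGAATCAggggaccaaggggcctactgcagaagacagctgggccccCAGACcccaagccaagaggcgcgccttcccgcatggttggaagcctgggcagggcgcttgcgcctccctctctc
Fbln5: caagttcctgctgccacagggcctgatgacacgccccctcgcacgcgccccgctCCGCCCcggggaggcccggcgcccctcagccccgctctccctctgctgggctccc
Mfap5: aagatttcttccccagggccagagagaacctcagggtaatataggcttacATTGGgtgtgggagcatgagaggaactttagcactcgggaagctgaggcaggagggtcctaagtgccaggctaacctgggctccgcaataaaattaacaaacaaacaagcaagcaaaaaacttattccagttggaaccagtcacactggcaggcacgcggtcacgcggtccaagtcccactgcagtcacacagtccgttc

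The printed stretch of *Efemp1* held 1 AP-1 match, at base 36, and 1 SMAD match, at base 82. That of *Fbln5* held 1 GC box, at base 55 on the other strand, in a stretch of 77.1% G and C, and that of *Mfap5* held 1 CCAAT box, at base 51 on the other strand. No 2 matches overlapped. Of 33469 full windows of this table, 7.33% held the AP-1 letters, 50.1% the SMAD letters, 33.1% the GC box, 37.5% the CCAAT box and 14.2% the TATA box. Full windows are longer than the printed stretches. The full window of *Efemp1* held 1 AP-1 match, 4 SMAD matches and 1 GC box. That of *Fbln5* held 1 GC box, 2 CCAAT boxes and 2 SMAD matches, and that of *Mfap5* 1 CCAAT box. Among the 7 members with a window, *Efemp1* alone held the AP-1 letters and none held TATAAA. These matches describe the letters of the windows only.

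Together the 10 genes took 5051 ± 63.7 TPM in Fb-Epn cells, 3802 ± 61.5 in Fb-Par and 4053 ± 67.4 in Fb-Skn (SD, n = 3). The 3 types differed in this sum (exact permutation test of the F statistic over 1680 assignments, p = 0.00357, the smallest this design can give). The direction between Fb-Epn and Fb-Par was not stable. Fb-Epn was 1.33-fold higher in TPM, but lower by 0.046 on the log2 scale when TMM-scaled CPM were summed, which weights long genes more, and lower by 0.0056 without *Fbln2* (2859 against 2870.4 TPM). *Fbln2* made up 43.4% of the summed TPM in Fb-Epn and 46.4% in Fb-Skn but 24.5% in Fb-Par. *Fbn1* made up 33.8% in Fb-Par and 10.9% in each of the others. *Mfap5* went from 25.3% in Fb-Epn to 16.0% in Fb-Par and 10.2% in Fb-Skn, and *Fbln5* from 1.89% to 5.43% and 14.0%. *Efemp1* took 6.80% in Fb-Par, 0.427% in Fb-Epn and 0.0857% in Fb-Skn, while *Efemp2* stayed between 10.9% and 11.97%.

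**Figure D3:**
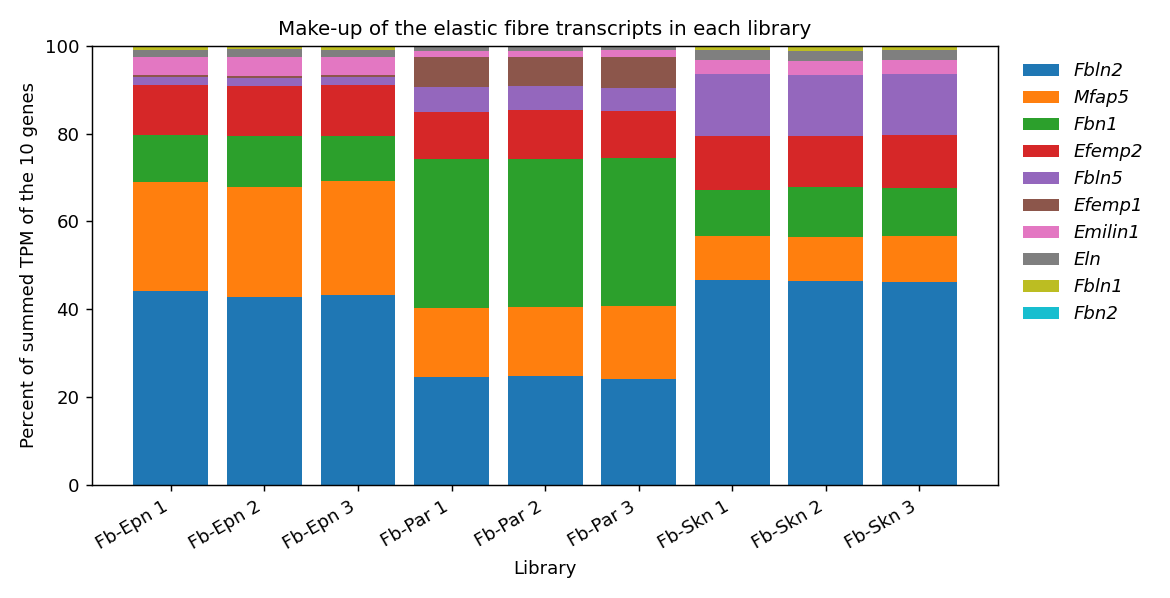
Share of each gene in the summed TPM of the 10 elastic fibre genes, in percent, with 1 bar per library. The bars of a type look alike, *Fbln2* fills the largest part in Fb-Epn (43.4%) and Fb-Skn (46.4%), and *Fbn1* does so in Fb-Par (33.8%).

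Within families the balance shifted too. The long fibulins summed to 2230.0 ± 69.5 TPM in Fb-Epn cells, 939.6 ± 13.0 in Fb-Par and 1915 ± 23.4 in Fb-Skn. In turn the short fibulins summed to 691 ± 13.3, 878 ± 11.6 and 1055 ± 13.2 TPM in the same order, so these sums had their maxima in different types. The long sum was almost all *Fbln2*. The short forms had no shared maximum, with *Fbln5* highest in Fb-Skn, *Efemp1* in Fb-Par and *Efemp2* in Fb-Epn. The short fibulins nearly equalled the long ones in Fb-Par and were well below them in Fb-Epn and Fb-Skn. The fibrillins summed to 554 ± 32.7, 1292 ± 27.4 and 451 ± 27.1 TPM, almost all of it *Fbn1*.

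Ratios of TPM within a library do not depend on the scaling between libraries. The *Eln* to *Fbn1* ratio was 0.148, 0.146 and 0.166 in the Fb-Epn libraries, 0.0212, 0.0219 and 0.0199 in Fb-Par, and 0.205, 0.203 and 0.189 in Fb-Skn. Fb-Par had on average 47.6 *Fbn1* transcripts per *Eln* transcript, Fb-Epn 6.54 and Fb-Skn 5.03. The 3 types differed in this *Eln* to *Fbn1* ratio (exact permutation test of the F statistic, p = 0.00357, adjusted p = 0.00357 over 3 ratios). That p is the smallest this design can give. From Fb-Skn to Fb-Par the ratio fell 9.46-fold, a pair not tested by itself.

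The *Fbn2* to *Fbn1* ratio was 0.613% ± 0.0987 in Fb-Epn cells, 0.404% ± 0.0398 in Fb-Par and 1.58% ± 0.0657 in Fb-Skn (SD, n = 3). Fibrillin-2 transcripts were a small minority of fibrillin transcripts in each type, and their ratio to *Fbn1* was 3.92-fold higher in Fb-Skn than in Fb-Par. The 3 types differed in this ratio (exact permutation test, p = 0.00357, adjusted p = 0.00357). The *Fbln5* to *Efemp2* ratio rose from 0.167 ± 0.00438 in Fb-Epn to 0.5003 ± 0.0166 in Fb-Par and 1.17 ± 0.0160 in Fb-Skn (exact permutation test, p = 0.00357, adjusted p = 0.00357). Thus fibulin-4 transcripts outnumbered those of fibulin-5 in the nerve types, and the reverse held in Fb-Skn. The *Efemp1* to *Fbln5* ratio, chosen after its values were seen and not tested, was 0.226 in Fb-Epn cells, 1.25 in Fb-Par and 0.00614 in Fb-Skn. With 3 libraries a type, a permutation test of 1 pair of types cannot give a p below 0.1.

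**Figure D4:**
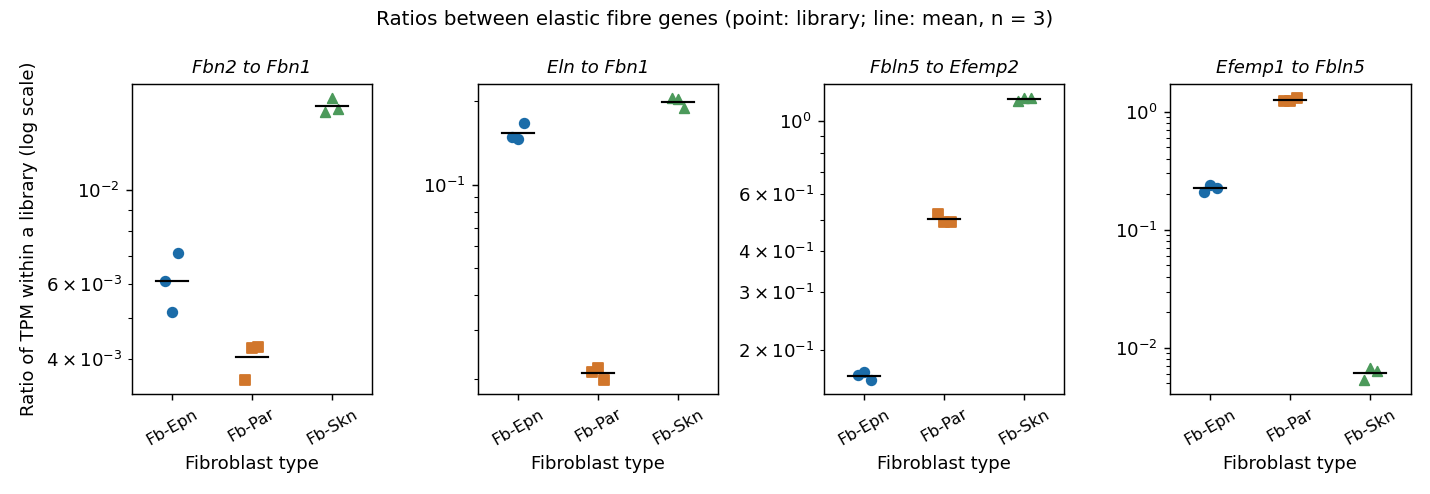
Ratios of TPM between elastic fibre genes within each library on log axes, with 1 point per library and a line at the mean (n = 3). Fb-Par has the lowest *Eln* to *Fbn1* ratio (0.0210 against 0.153 and 0.199) and Fb-Skn the highest *Fbln5* to *Efemp2* ratio (1.17).

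The genes whose levels were most like a member's were found by Pearson's r of log2(TPM + 1) over the 9 libraries, among 8832 tested genes with a mean TPM of at least 10. Within a type the members' levels lay close together, so r mainly reflects 3 type means and is a description only. Nearest to *Eln* were *Clmp*, *Stc2* and *Mmp2* (r of 0.998, 0.997 and 0.997). *Clmp*, an adhesion molecule of the immunoglobulin family, had 188 TPM in Fb-Epn cells, 18.2 in Fb-Par and 193 in Fb-Skn, and *Mmp2*, a gelatinase that also cuts elastin, had 1516, 915 and 1529 TPM. Nearest to *Fbn1* were *Pros1*, *Cavin2* and *Smpd3* (r of 0.998, 0.997 and 0.997), of which *Pros1*, the anticoagulant protein S, had 158, 355 and 125 TPM. Nearest to *Mfap5* were *Prss35*, *Serpinb1a* and *Col14a1* (r of 0.999, 0.999 and 0.998), of which *Col14a1*, a fibril-associated collagen, had 489, 88.1 and 30.3 TPM.

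The enzymes and partners of elastic fibres were taken from 7 lists. Of the 6 genes for crosslinking of elastin, 4 were called between Fb-Epn and Fb-Skn (2 higher and 2 lower in Fb-Epn), 5 between Fb-Par and Fb-Skn (3 higher and 2 lower in Fb-Par) and 6 between Fb-Epn and Fb-Par (2 higher and 4 lower in Fb-Epn), against 43.9%, 45.6% and 38.8% of all tested genes. *Loxl1*, the lysyl oxidase-like enzyme tied to elastin through fibulin-5, had 339 ± 4.64 TPM in Fb-Epn cells, 387 ± 3.98 in Fb-Par and 818 ± 19.8 in Fb-Skn (SD, n = 3). It was thus highest in the type with the most *Fbln5*, 2.66-fold above Fb-Epn and 2.35-fold above Fb-Par (adjusted p = 7.9e-15 and 2.9e-14, edgeR). *Loxl2*, which also crosslinks basement membrane collagen, was highest in Fb-Par (1061 TPM against 413 in Fb-Epn and 567 in Fb-Skn). *Loxl4* was lowest there (6.86 TPM against 19.4 and 18.5), and *Loxl3* was highest there (79.6 TPM, against 29.7 in Fb-Skn).

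Latent TGF-beta binding proteins dock the growth factor onto fibrillin. Of 7 genes of this list, 5 were called between Fb-Epn and Fb-Skn, all lower in Fb-Epn, 5 between Fb-Par and Fb-Skn (2 higher and 3 lower in Fb-Par) and 4 between Fb-Epn and Fb-Par (1 higher and 3 lower in Fb-Epn). Of all tested genes, 43.9% (20.9% lower in Fb-Epn), 45.6% and 38.8% were called. *Ltbp1* had 35.1 ± 0.562 TPM in Fb-Epn cells, 13.1 ± 0.293 in Fb-Par and 113 ± 4.85 in Fb-Skn (SD, n = 3). *Ltbp4*, which works with fibulin-5 in elastin assembly, had 8.55 ± 0.869, 25.9 ± 1.09 and 21.2 ± 1.72 TPM in the same order. The ligand genes *Tgfb2* (73.5, 254 and 194 TPM) and *Tgfb3* (360.3, 506 and 961 TPM) were likewise lowest in Fb-Epn.

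Of 10 listed relatives of the microfibril and emilin proteins, 5 could be tested, and all 5 were called in every comparison, against 16.5% of all tested genes called in all 3 and 43.9%, 45.6% and 38.8% in each. In the nerve types 4 were higher than in Fb-Skn and 1 lower, and 1 was higher and 4 were lower in Fb-Epn than in Fb-Par. *Mfap2*, the sister gene of *Mfap5* (MAGP-1), was scarce, at 2.87 TPM in Fb-Epn cells, 23.8 in Fb-Par and 0.927 in Fb-Skn, so its maximum was in Fb-Par and not in Fb-Epn. *Emilin2* had 30.9, 15.1 and 1.31 TPM, *Emilin3* 1.11, 3.64 and 0.0285, and *Fbln7* 3.00, 10.9 and 0.362. *Hmcn1*, a giant relative of the fibulins, was the exception, with 6.04, 9.59 and 42.1 TPM.

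Of 11 listed genes of the ADAMTS and ADAMTS-like family, in which several proteins bind fibrillin, 6 were tested. Between Fb-Epn and Fb-Skn 5 were called (2 higher and 3 lower in Fb-Epn), between Fb-Par and Fb-Skn 4 (3 higher and 1 lower in Fb-Par), and between Fb-Epn and Fb-Par 5 (3 higher and 2 lower in Fb-Epn), where 43.9%, 45.6% and 38.8% of all tested genes were called. *Adamts10* was highest in Fb-Par, like *Fbn1*, with 130 ± 2.59 TPM against 49.98 ± 3.14 in Fb-Epn and 76.3 ± 4.202 in Fb-Skn (SD, n = 3). *Adamtsl3* had 20.6 TPM in Fb-Epn cells, 7.68 in Fb-Par and 1.92 in Fb-Skn, and *Adamtsl4* 108, 78.0 and 46.7 TPM, the same order as *Mfap5*.

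**Figure D5:**
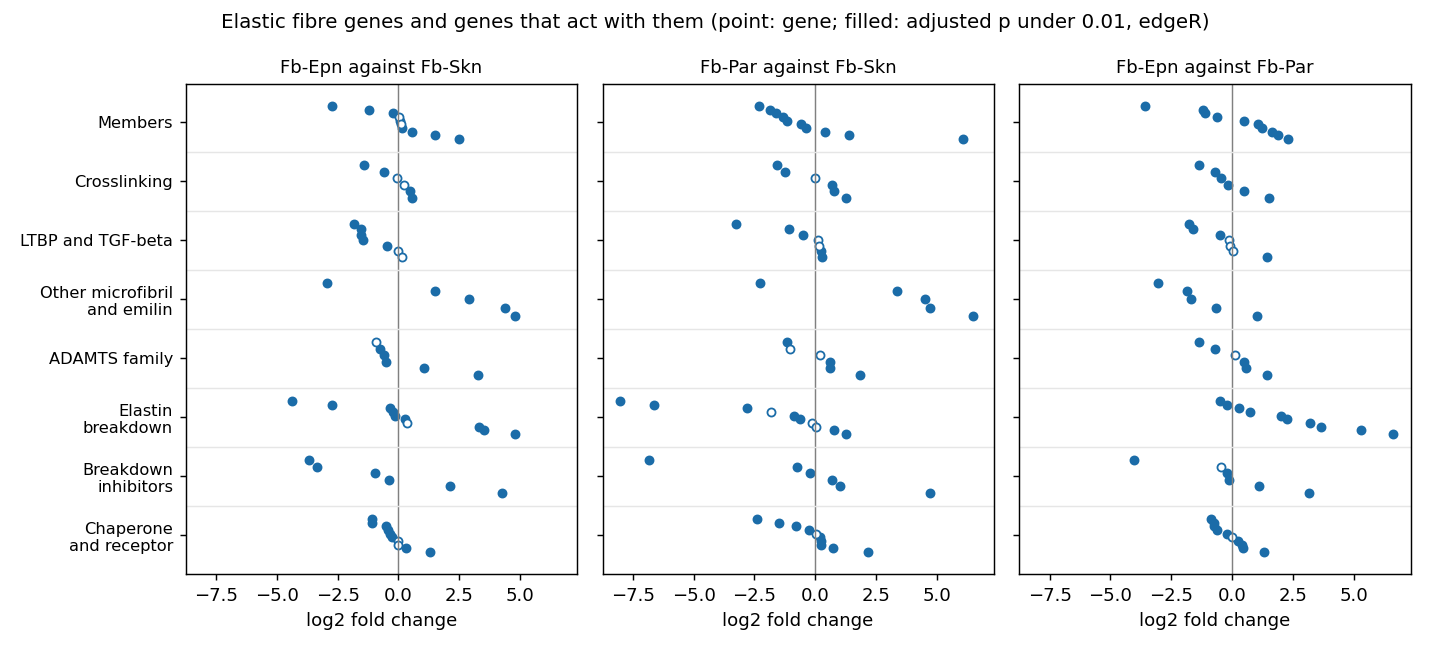
edgeR log2 fold changes of the 10 members and of the genes of 7 lists of their partners, with 1 point per tested gene, filled where the adjusted p was under 0.01. Every list holds points on both sides of 0 in most panels, and the 10 tested elastin breakdown genes lie mostly to the right in Fb-Epn against Fb-Par (8 higher, 2 lower).

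Elastin is cut by metalloproteinases and cathepsins. Of the 10 breakdown genes tested, 9 were called between Fb-Epn and Fb-Skn (4 higher and 5 lower in Fb-Epn), 7 between Fb-Par and Fb-Skn (2 higher and 5 lower in Fb-Par) and all 10 between Fb-Epn and Fb-Par (8 higher and 2 lower in Fb-Epn). The shares of all tested genes were 43.9%, 45.6% and 38.8% (in the last comparison 20.2% higher and 18.6% lower in Fb-Epn). *Mmp12*, macrophage elastase, had 294 ± 12.5 TPM in Fb-Epn cells, 23.2 ± 1.51 in Fb-Par and 23.3 ± 3.38 in Fb-Skn (SD, n = 3). *Ctss*, a cathepsin of antigen-presenting cells that also cuts elastin, had 47.7, 11.7 and 4.36 TPM. All 6 macrophage markers were higher in Fb-Epn than in either other type (*Cd68* 153 TPM against 27.8 and 7.87), and their part in these values was not tested. *Mmp3* (0.990, 0.187 and 18.4 TPM) and *Mmp10* (0.573, 0 and 3.47 TPM, with 0 counts in Fb-Par) were highest in Fb-Skn.

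Of the 6 tested protease inhibitors, 6 were called between Fb-Epn and Fb-Skn (2 higher and 4 lower in Fb-Epn). Between Fb-Par and Fb-Skn 6 were called (3 each way), and between Fb-Epn and Fb-Par 5 (2 higher and 3 lower in Fb-Epn). The shares of all tested genes called were 43.9%, 45.6% and 38.8%. *Timp1* had 1982 ± 25.9 TPM in Fb-Epn cells, 922 ± 10.6 in Fb-Par and 412 ± 9.63 in Fb-Skn (SD, n = 3), again the order of *Mfap5*. *Timp3*, the inhibitor that stays bound to the matrix, had 33.1 ± 2.01, 549 ± 13.1 and 306 ± 17.2 TPM, and was 10.2-fold lower in Fb-Epn than in Fb-Skn and 16.4-fold lower than in Fb-Par (adjusted p = 5.5e-16 and 8.8e-17, edgeR). *Slpi*, an inhibitor of leukocyte elastase, was found mainly in Fb-Skn, with 202 TPM against 17.4 in Fb-Epn and 1.89 in Fb-Par.

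Of the 10 genes for the elastin chaperones and the integrin receptors of fibrillins and fibulin-5, 8 were called between Fb-Epn and Fb-Skn (2 higher and 6 lower in Fb-Epn), 9 between Fb-Par and Fb-Skn (5 higher and 4 lower in Fb-Par) and 9 between Fb-Epn and Fb-Par (4 higher and 5 lower in Fb-Epn), beside 43.9%, 45.6% and 38.8% of all tested genes. *Itga8*, an integrin chain that binds matrix proteins with an RGD motif, had 78.6 TPM in Fb-Epn cells, 32.0 in Fb-Par and 153 in Fb-Skn. *Itgb5* had 97.05, 74.1 and 187 TPM, and *Itgb3* 16.9, 30.7 and 6.22 TPM, so *Itgb5* was highest in Fb-Skn and *Itgb3* in Fb-Par.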

How the data were processed

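The authors extracted RNA from 9 samples of cultured rat fibroblasts, used samples with an RNA integrity number of at least 7, made directional poly(A) libraries and sequenced paired ends of 150 bp. Per the labels, reads were checked with FastQC 0.11.7, trimmed with Trimmomatic 0.38, aligned to rn6 with HISAT2 2.1.0 and counted with featureCounts 1.6.3; strand use and annotation release are not given in the sources used here. For each of 32883 genes the authors deposited a raw count, a TPM and an FPKM per library. TPM served for levels and ratios, counts for tests, and FPKM for 1 alternative. Types came from the sample titles.

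Counts were tested with edgeR 4.0.16 in R 4.3.3 (TMM, default expression filter, quasi-likelihood F test, 13273 genes, Benjamini-Hochberg), and the common coefficient of variation was 8.25%. The model was tested on simulated counts. Ratios and sums were tested by exact permutation (two-sided, F statistic). Alternatives were DESeq2 1.42.0, limma 3.58.1 on log2 TPM and FPKM, other scalings and filters, each library left out and a replicate block. For calls, a threshold of 0.05 on the main fit was a further alternative. Tables used Python 3.11.15. The members, lists and rules were chosen with earlier results of these data known. Named genes were the members, some cell type markers and the 3 genes nearest in pattern to *Eln*, *Fbn1* and *Mfap5*. List genes called with a log2 fold change above 1 or below -1 in a comparison could be named, and not all were. Counting intervals and floors were not needed, since no member was at 0. In the marker sums, 1 gene is counted that is not reported here by itself.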

Additional observations from a re-analysis of the deposited data

How the results depend on the processing

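Each member's difference was read under 21 other settings, among them a threshold of 0.05 on the main fit. Of these values, 604 kept their direction and side of the threshold, 15 lost the call, 9 gained it and 2 changed sign. All changes but 2 concerned Fb-Epn against Fb-Skn, and the cause was not tested. The sign changes were for *Fbln1* in Fb-Epn against Fb-Skn, at -0.020 without Fb-Epn 1 and -0.0020 without Fb-Skn 1, in a range of -0.020 to 0.062 over the libraries left out. With limma on log2(FPKM + 1), which shrinks differences of low genes, the DE members numbered 1 in Fb-Epn against Fb-Par and 1 in Fb-Par against Fb-Skn. The summed TPM of the members turned between Fb-Epn and Fb-Par to -0.046 (log2) with TMM-scaled CPM and to -0.0056 without *Fbln2*. Leaving out 1 library at a time, 6 to 8 members were called in Fb-Epn against Fb-Skn and 10 in both other comparisons. Same-numbered libraries of different types deviated from their type means with r from -0.080 to 0.020 over all tested genes. An r over all genes can miss a shift of a few genes, so it does not decide whether replicate numbers pair the libraries. With a replicate block, 8, 10 and 10 members were called as without it, and 4859 genes in place of 5145 were called in Fb-Epn against Fb-Par. The lowest counts per library were those of *Efemp1* in Fb-Skn (34 to 37), *Fbln1* in Fb-Par (109 to 142) and *Fbn2* (132 to 284), which limits the precision there.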

Other observations

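*Mfap4*, a further microfibril-associated gene, could not be read from the row of its name, which held 0 to 2 counts per library (rn6 chromosome 10, 47765432 to 47768483). A second row, *LOC102553715* (ENSRNOG00000045683, chromosome 10, 49000973 to 49003931, plus strand), carries the gene number that RefSeq gives to *Mfap4*. It had 2036, 643 and 552 counts in Fb-Epn, 670, 227 and 202 in Fb-Par, and 800, 725 and 487 in Fb-Skn. In TPM it had 269, 75.3 and 72.2 in Fb-Epn, 81.2, 31.8 and 26.9 in Fb-Par, and 97.6, 101 and 67.5 in Fb-Skn, so the first library stood above the others in both nerve types but not in Fb-Skn. Its difference was not called in any comparison (adjusted p = 0.37 for Fb-Epn against Fb-Skn, 0.074 for Fb-Par against Fb-Skn and 0.013 for Fb-Epn against Fb-Par, edgeR). A gene on the other strand, *LOC100912585*, overlaps it by 1806 bp and had 1407, 70 and 100 counts in Fb-Epn, 432, 46 and 37 in Fb-Par, and 87, 71 and 82 in Fb-Skn, so it was high in the same Fb-Epn and Fb-Par libraries. For the 10 elastic fibre genes the coefficient of variation of TPM within a type was at most 11.4%. These rows were looked at after their values were seen, and no test beyond the comparisons above was run.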
